A study of Mus musculus with 16 samples.

Results

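The genes described here are 38 genes of protein folding and the unfolded protein response in the endoplasmic reticulum (ER), chosen by gene symbol from the 24421 genes of a mouse colon RNA-seq table. They comprise 15 chaperones and folding enzymes, 8 genes of ER-associated degradation, 5 stress sensors and their transcription factors, 7 genes of the branch run by the transcription factor ATF4, and 3 genes of the translocon, the channel through which new proteins enter the ER. All 38 had reads in every library and passed the filter on low values.

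The ER folds secreted and membrane proteins with chaperones such as BiP (Hspa5) and with protein disulfide isomerases, and sends misfolded chains to the cytosol for destruction. When misfolded proteins accumulate, the sensors IRE1 (Ern1 and Ern2), ATF6 and PERK (Eif2ak3) start the unfolded protein response: IRE1 splices Xbp1 mRNA, ATF6 is cut to release a transcription factor, and PERK slows translation while favouring that of ATF4. In the colon the goblet cell, which makes mucin, and the antibody-secreting plasma cell carry heavy folding loads, and mice that lack Xbp1 in the gut epithelium or lack Ern2 are known to be sensitive to experimental colitis.

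The study crossed a genotype with a treatment in C57BL/6 mice of 8 weeks, with 4 libraries in each of 4 groups. DIEC mice lack the nuclear receptor corepressor NCoR1 in intestinal epithelial cells, and F/F mice, whose genotype is labelled wild type, were their controls. The first group was DIEC mice given 2.5% dextran sulfate sodium (DSS), a polymer that injures the colon epithelium, with RNA prepared on day 3 (DIEC DSS), and the second was DIEC mice given water (DIEC naive). F/F mice given the same DSS (F/F DSS) and F/F mice given water (F/F naive) made up the other groups. Each library holds the RNA of 3 mice combined, taken from colon tissue, so each value is an average over mice and over all cells of the tissue, and the sources used here do not name the Cre line behind the deletion. A lower level in such tissue can come from fewer cells of a type or from less RNA per cell, and these cannot be told apart.

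Values are reads per gene scaled by the authors to nearly the same sum in every library, called scaled reads below, and the libraries held 19957413 to 34733832 reads on genes. Ncor1 had 1343 to 1663 scaled reads in DIEC DSS and 1756 to 1979 in DIEC naive libraries, against 3689 to 4078 in F/F DSS and 3445 to 3730 in F/F naive libraries, so it was lower in all 8 DIEC libraries, with reads remaining. Marker lists for colon epithelium were detected in every library (1.01% to 1.44% of reads). Pancreatic acinar markers took 0.0293% to 0.0427% of reads in DIEC DSS, against 0.0699% to 2.36% in DIEC naive, and 0.0396% to 0.0523% in F/F DSS, against 0.0486% to 0.490% in F/F naive libraries. Pancreatic lipase (Pnlip) was at 0 in all DSS libraries and had reads in all naive ones. Plasma cell markers took 0.0476% to 0.0687% of reads in DIEC DSS, against 0.127% to 0.171% in DIEC naive, and 0.0750% to 0.0938% in F/F DSS, against 0.187% to 0.238% in F/F naive libraries. Smooth muscle markers rose with DSS (10 of 10 genes in DIEC and 9 of 10 in F/F) and proliferation markers fell (15 of 15 in both). The part of these cell types in the changes described below was not tested. Some values without the naive libraries richest in acinar reads are given, but only 1 DIEC naive library is then left.

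Differences are log2 changes of scaled reads plus 1, with the standard error, from limma fitted to 18267 genes and all 16 libraries, and a gene was called when its p-value adjusted by the Benjamini-Hochberg method over all tested genes was under 0.05. TMM rescales each library by the bulk of its genes. Over all tested genes, it raised the log2 change by a median of 0.25 for DSS in DIEC and 0.10 for DSS in F/F. For DIEC against F/F under DSS the median rise was 0.19. For the 38 genes, a value or call after TMM is given beside each printed change that it calls, no longer calls or turns.

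With DSS, a larger share of the 38 genes than of all tested genes fell in F/F colon. In DIEC colon the share that fell was no larger than that of all genes. No difference between the 2 DSS responses was called for any of the 38 genes in the main limma fit. Of 195 other ER genes, described below, 108 fell in DIEC and 105 in F/F (40% and 28.5% of all tested genes). The stress genes Atf3 and Ppp1r15a rose in both genotypes. Of the 38 genes, 14 were lower and 3 higher in DIEC DSS against DIEC naive colon, where 40% of all tested genes were called lower and 12.3% higher. In F/F DSS against F/F naive colon, 20 were lower and 2 higher, where 28.5% of all tested genes were called lower and 16.3% higher. The median log2 change of the 38 genes was −0.18 in DIEC (all tested genes −0.24) and −0.34 in F/F (all tested genes −0.11). After TMM the medians were 0.07 in DIEC and −0.24 in F/F. On that scale, 7 were lower and 12 higher in DIEC (26.3% and 25.1% of all genes), while 16 were lower and 3 higher in F/F (22.5% and 22.8%). The balance of directions in DIEC thus turned with the scaling.

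**Figure D1:**
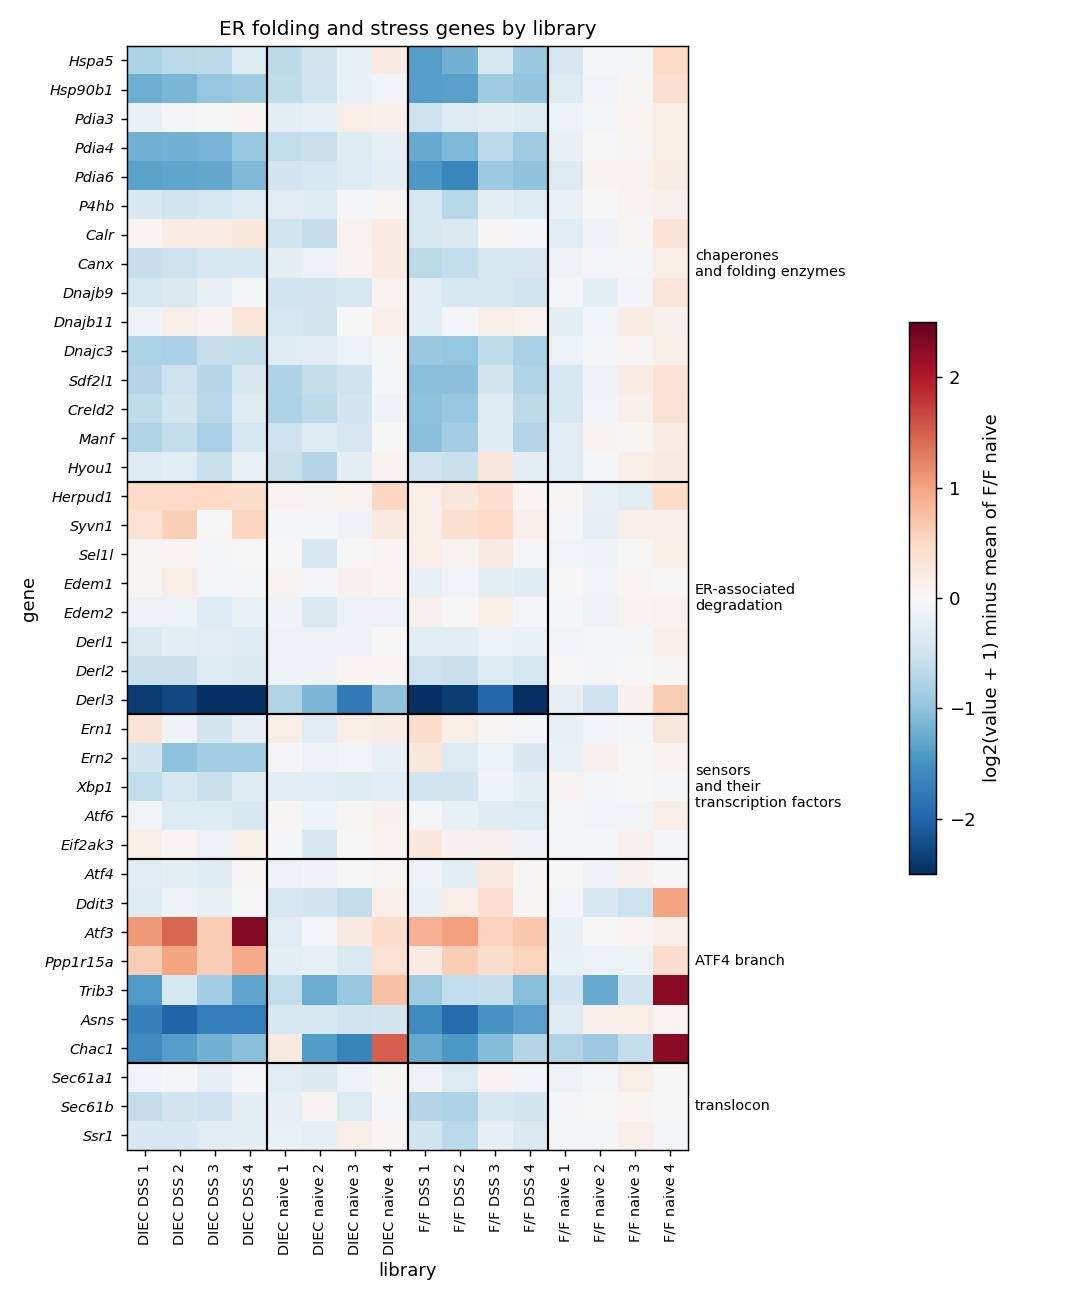
Difference of log2(scaled reads + 1) in each of the 16 libraries from the mean of the 4 F/F naive libraries, for the 38 genes grouped by role (rows) and the libraries grouped as DIEC DSS, DIEC naive, F/F DSS and F/F naive (columns). The folding enzymes Hsp90b1, Pdia4 and Pdia6 and the gene Asns are blue in all 8 DSS libraries, Atf3 is red in all of them, and Trib3 and Chac1 are darkest red in F/F naive 4.

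Per kilobase of exon, and averaged over all 16 libraries, the most abundant of the 38 genes were Calr (10696 scaled reads per kb), Hspa5 (9834), Pdia3 (8259), Hsp90b1 (8148) and P4hb (8023). Atf4 (3936) and the degradation adaptor Herpud1 (3811) followed. At the bottom stood the sensor gene Ern1 (191), Derl3 (123), Chac1 (50.7) and Trib3 (24.8), so the genes spanned abundant chaperones and stress targets with few reads.

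Among the chaperones and folding enzymes, the ones that fell most were protein disulfide isomerases, which form and rearrange disulfide bonds, and the HSP90 of the ER. Pdia6 (mm9 chr12:17273401-17291576, plus strand) had 4421, 4489, 4596 and 5206 scaled reads in the 4 DIEC DSS libraries, against 8018, 8312, 8957 and 9582 in the DIEC naive libraries. It had 4134, 3629.9, 5976 and 5557 in the F/F DSS libraries, against 8847, 11776, 11996 and 12730.0 in the F/F naive libraries. All DSS libraries lay below all naive libraries of either genotype. The log2 change was −0.90 ± 0.14 in DIEC (adjusted p = 3.26e-05) and −1.25 ± 0.14 in F/F (adjusted p = 3.73e-06).

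Pdia4, another isomerase, had 3059, 3127, 3153 and 3692 scaled reads in DIEC DSS, against 4648, 4801, 5747 and 6168 in DIEC naive libraries, and 2957, 3259, 4524 and 3844 in F/F DSS, against 6192, 7111, 7215 and 7889 in F/F naive libraries. The groups did not overlap in either genotype, and the log2 changes were −0.71 ± 0.12 in DIEC (adjusted p = 6.84e-05) and −0.98 ± 0.12 in F/F (adjusted p = 6.68e-06). Dnajc3 encodes P58IPK, a DnaJ cochaperone of BiP that also restrains PERK. It had 3973, 3954, 4629 and 4548 scaled reads in DIEC DSS, against 5622, 5769.8, 6264 and 6702 in DIEC naive libraries, and 3651, 3527, 4456 and 3925 in F/F DSS, against 6225, 6778, 7046 and 7624 in F/F naive libraries. Again no DSS library reached a naive one, with log2 changes of −0.51 ± 0.09 in DIEC (adjusted p = 7.13e-05) and −0.83 ± 0.09 in F/F (adjusted p = 1.48e-06).

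Hspa5, the BiP chaperone that also holds the sensors inactive, spread more widely. Its values were 19397, 20956, 21359.6 and 26441 scaled reads in DIEC DSS, against 21341, 24107, 29521 and 38806 in DIEC naive libraries. In F/F colon they were 12983, 14686, 25315 and 17589.7 with DSS, against 24995, 32647, 32731 and 47143 without it. DSS and naive libraries overlapped in both genotypes, in F/F because F/F DSS 3 (25315) lay above F/F naive 1 (24995). The change in F/F was −0.97 ± 0.23 (adjusted p = 0.00364), whereas that in DIEC, −0.34 ± 0.23, was not called (adjusted p = 0.248, 95% interval −0.85 to 0.17). The interval of the difference between the responses, DIEC minus F/F, ran from −0.09 to 1.35 around 0.63 ± 0.33 (adjusted p = 0.276).

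Hsp90b1, Calr and Pdia3 were singled out after their values were seen. Hsp90b1, the GRP94 chaperone, ranged from 13914 to 17428 in DIEC DSS, against 20921 to 30918 in DIEC naive libraries, and from 12548 to 17582 in F/F DSS, against 25618 to 42525 in F/F naive libraries, and fell in both (−0.71 ± 0.16, adjusted p = 0.00103, and −1.15 ± 0.16, adjusted p = 2.32e-05). Calr, the lectin chaperone calreticulin and the most abundant of the 38 per kilobase, was not called for DSS in either genotype: 0.37 ± 0.17 in DIEC (adjusted p = 0.0846) and −0.19 ± 0.17 in F/F (adjusted p = 0.397). After TMM the DIEC change of Calr was 0.62 and was called. Pdia3, the isomerase that works with calreticulin and calnexin on glycoproteins, fell in F/F only on the deposited scale (−0.35 ± 0.10, adjusted p = 0.00788, not called after TMM) and was at −0.01 ± 0.10 in DIEC (adjusted p = 0.972, and 0.25, not called, after TMM).

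Of all 15 chaperones and folding enzymes, 6 were lower in DIEC DSS colon (Hsp90b1, Pdia4, Pdia6, P4hb, Canx and Dnajc3) and 12 in F/F DSS colon, with none higher in either. All tested genes were lower in 40% of cases in DIEC, the same share as these 6 of 15, and in 28.5% in F/F, a smaller share than 12 of 15. Those lower in F/F alone were Hspa5, Pdia3, Dnajb9, Sdf2l1, Creld2 and Manf, and for none of these 6 was the difference between the responses called in the main limma fit (differences 0.34 to 0.71, adjusted p from 0.127 to 0.296). Sdf2l1, a BiP cofactor, gave −0.11 ± 0.18 in DIEC and −0.82 ± 0.18 in F/F (adjusted p = 0.651 and 0.00191), and 0.14 in DIEC after TMM, not called. Creld2, which encodes a secreted ER stress protein, was at −0.02 ± 0.19 in DIEC and −0.73 ± 0.19 in F/F (adjusted p = 0.934 and 0.00578), with 0.23 in DIEC after TMM, not called. Manf, a secreted stress factor, was at −0.35 ± 0.15 in DIEC and −0.73 ± 0.15 in F/F (adjusted p = 0.0614 and 0.000808). Canx, the membrane lectin calnexin, was −0.47 ± 0.10 in DIEC and −0.53 ± 0.10 in F/F. Dnajb11 and Hyou1, a DnaJ cochaperone and a large Hsp70-like protein of the ER, were called in neither genotype. After TMM, 4 of the 15 were lower and 3 higher in DIEC (Calr, Dnajb9 and Dnajb11 higher, P4hb and Canx no longer called), while 10 were lower and none higher in F/F (Dnajb9, at −0.31, and Pdia3 no longer called). The median log2 change of the group was −0.27 in DIEC and −0.73 in F/F, and −0.02 and −0.63 after TMM. Goblet cell markers took 2.67% to 3.37% of reads in DIEC DSS, against 2.19% to 3.46% in DIEC naive, and 2.03% to 2.56% in F/F DSS, against 2.21% to 5.28% in F/F naive libraries. Of these 11 markers, 4 were lower and 2 higher with DSS in DIEC, and 5 were lower and none higher in F/F (2 lower and 4 higher in DIEC, and 5 lower in F/F, after TMM). Their part in the changes of the folding genes was not tested. Each group also had 1 library that was the highest of its 4 for nearly all of the 15 genes: DIEC DSS 4 for 14, DIEC naive 4 for 14, F/F DSS 3 for 13 and F/F naive 4 for 14. F/F naive 1 was the lowest of its group for 14 of the 15.

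**Figure D2:**
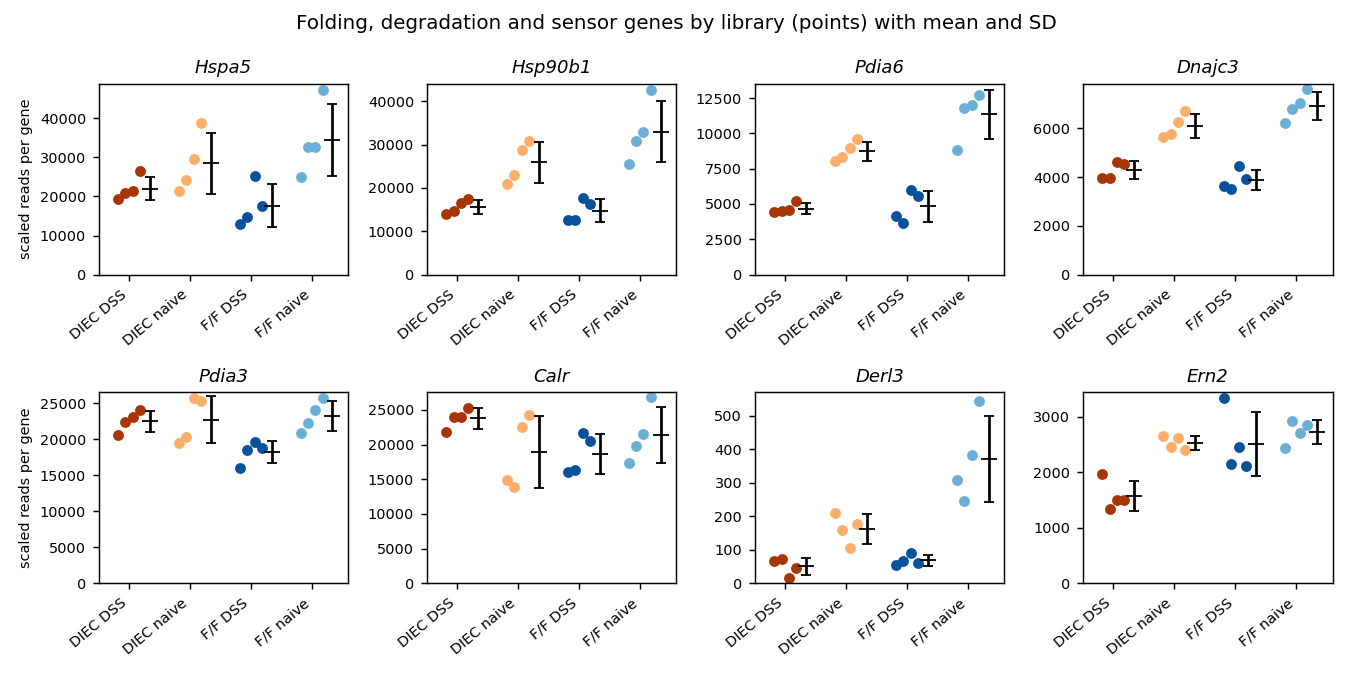
Scaled reads per gene (linear axes from 0) of Hspa5, Hsp90b1, Pdia6, Dnajc3, Pdia3, Calr, Derl3 and Ern2 in each library (points) with the mean and SD of 4 libraries per group. The DSS points of Pdia6 and Dnajc3 lie below all naive points, those of Hspa5 and Calr mix with naive points, and Ern2 is low in DIEC DSS libraries.

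Several folding genes share a short promoter element. The ER stress response element (ERSE), CCAAT and CCACG parted by 9 free bases, is known as the binding site of ATF6 together with the CCAAT factor NF-Y. It was sought on both strands in RefSeq windows (GRCm38.p6) from 250 bases before to 50 after each annotated gene start, which were found for 32 of the 38 genes. Of these 32 genes, 9 (28.1%) held the letters, against 39 of 32851 windows of all genes (0.119%), and 7 of them were chaperones or folding enzymes. The windows of Hspa5, Hsp90b1 and Calr are shown because the first fell in F/F colon, the second in both genotypes and the third in neither on the deposited scale, although all hold the element. Capitals mark the match, on the strand of the gene or, as CGTGG and ATTGG parted by the same 9 free bases, on the other strand.
Hspa5 (chr2:34771840-34772139, plus strand): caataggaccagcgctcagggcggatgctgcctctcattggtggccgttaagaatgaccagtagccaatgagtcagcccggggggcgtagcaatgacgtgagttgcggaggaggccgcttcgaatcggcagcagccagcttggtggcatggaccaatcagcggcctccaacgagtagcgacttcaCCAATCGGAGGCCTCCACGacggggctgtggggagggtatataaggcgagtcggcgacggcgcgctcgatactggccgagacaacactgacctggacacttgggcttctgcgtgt
Hsp90b1 (chr10:86705395-86705694, minus strand): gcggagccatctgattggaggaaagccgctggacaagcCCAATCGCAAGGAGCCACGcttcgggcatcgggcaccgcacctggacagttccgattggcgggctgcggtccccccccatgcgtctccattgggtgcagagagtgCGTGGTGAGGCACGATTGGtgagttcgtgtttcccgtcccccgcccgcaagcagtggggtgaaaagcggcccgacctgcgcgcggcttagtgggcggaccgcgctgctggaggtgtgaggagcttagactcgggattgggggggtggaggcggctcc
Calr (chr8:84846882-84847181, minus strand): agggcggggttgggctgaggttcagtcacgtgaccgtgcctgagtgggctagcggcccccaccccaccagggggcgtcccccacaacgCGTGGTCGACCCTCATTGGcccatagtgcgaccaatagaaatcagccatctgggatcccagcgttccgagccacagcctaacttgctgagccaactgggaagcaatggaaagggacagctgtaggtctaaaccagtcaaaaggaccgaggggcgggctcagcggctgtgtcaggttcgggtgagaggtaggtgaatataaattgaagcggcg
Counted in bases from the gene start, the match began at −65 in Hspa5, at −212 and −107 in Hsp90b1, and at −162 in Calr.

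The matches of the other 6 genes, with the fixed letters in capitals, differ in the spacer.
Pdia6: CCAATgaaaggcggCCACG
Dnajc3: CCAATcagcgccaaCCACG
Canx: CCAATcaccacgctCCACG
Syvn1: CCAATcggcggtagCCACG
Derl3: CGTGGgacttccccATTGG
Creld2: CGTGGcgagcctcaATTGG
The last 2 lie on the opposite strand. A related element, ERSE-II (ATTGG and CCACG parted by 1 free base, sought on both strands), was in the windows of Herpud1 and Dnajb11 and in 12 of all 32851 windows (0.0365%). The elements can share the letters ATTGG, but no window of the 32 genes held both. Of the 11 genes with either element, 5 fell and 1 rose with DSS in DIEC (median log2 change −0.34), and 7 fell and none rose in F/F (−0.73), where 40% and 28.5% of all tested genes fell. Of the 17 with a window but neither of these elements nor the ATF4 element described below, 5 fell and 1 rose in DIEC (−0.11), and 10 fell and 1 rose in F/F (−0.32). After TMM the 11 genes had 4 lower and 4 higher in DIEC (−0.09) and 7 lower and 1 higher in F/F (−0.63), and the 17 had 1 lower and 6 higher in DIEC (0.14) and 7 lower and 1 higher in F/F (−0.22). The letters TGACGTGG, an element bound by XBP1 and ATF6, were in 222 windows (0.676%) and in none of the 32 genes. A match describes letters only, and binding was not measured.

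**Figure D3:**
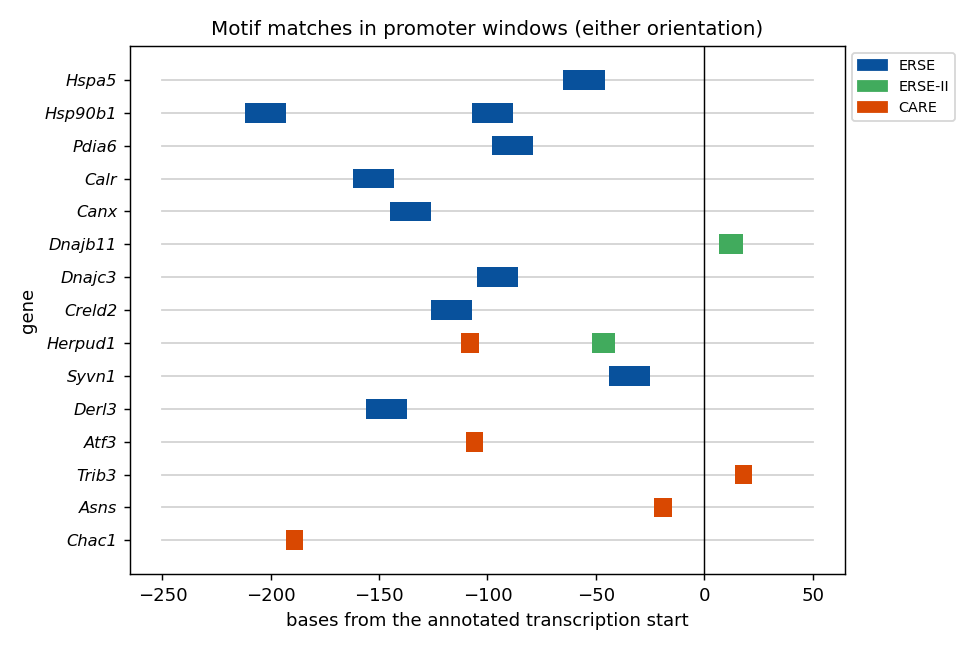
Position of element matches in promoter windows, in bases from the annotated gene start (0), for the genes with a match. Boxes span the matched letters, coloured by element (CARE is the ATF4 branch element), and the ERSE boxes begin between −212 and −44.

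In ER-associated degradation the 3 Derlins fell in both genotypes on the deposited scale, which after TMM held for Derl3 alone, and the ubiquitin ligase genes were not called lower. Derlins are membrane proteins that pull misfolded chains out of the ER. Derl3 (mm9 chr10:75356143-75358686, plus strand) had 67.7, 72.6, 15.1 and 46.8 scaled reads in DIEC DSS, against 209.9, 159, 105 and 176 in DIEC naive libraries, and 55.4, 67.3, 90.4 and 59.9 in F/F DSS, against 308, 246, 384 and 544 in F/F naive libraries. No DSS library reached a naive library, and the changes were the largest among the 38 genes, −1.84 ± 0.41 in DIEC (adjusted p = 0.00156) and −2.38 ± 0.41 in F/F (adjusted p = 0.000303). Of the 12 plasma cell markers, 7 were lower and 1 higher with DSS in DIEC, and 8 were lower and none higher in F/F (40% and 28.5% of all tested genes were lower). After TMM, 6 were lower and 1 higher in DIEC, and 8 were lower and 1 higher in F/F. Among them Jchain, the joining chain of secreted antibodies, fell by 2.22 ± 0.23 in DIEC and by 2.46 ± 0.23 in F/F on the log2 scale. The part of plasma cells in the fall of Derl3 was not tested.

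Derl2 had 1205, 1207, 1411 and 1373 scaled reads in DIEC DSS, against 1646, 1647, 1829 and 1828 in DIEC naive libraries, and 1214, 1202, 1396 and 1309.5 in F/F DSS, against 1762, 1735, 1781 and 1796 in F/F naive libraries. The groups stood apart in both genotypes, at −0.42 ± 0.07 in DIEC (adjusted p = 7.28e-05, not called after TMM) and −0.47 ± 0.07 in F/F (adjusted p = 4.86e-05). Derl1 had 2422, 2643, 2561 and 2482 in DIEC DSS, against 2803, 2825, 2857 and 3121 in DIEC naive libraries, and 2543, 2584, 2823 and 2766 in F/F DSS, against 2978, 3039, 3019.8 and 3414.5 in F/F naive libraries. These groups did not overlap either, but the changes were small, −0.20 ± 0.07 in DIEC (adjusted p = 0.0157) and −0.22 ± 0.07 in F/F (adjusted p = 0.0115), and after TMM neither was called and the DIEC value was 0.06.

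The ligase Syvn1 (HRD1), which tags misfolded proteins with ubiquitin, rose in DIEC (0.37 ± 0.12, adjusted p = 0.0165), where DIEC DSS 3 (2240) lay among the naive values, and was at 0.30 ± 0.12 in F/F (adjusted p = 0.0524, called after TMM). The gene span of Syvn1 overlaps that of Mrpl49, on the opposite strand, by 89 bases, so reads of the pair may mix. Sel1l, the adaptor of the Syvn1 ligase, was not called (0.11 ± 0.09 in both), but after TMM was called higher in DIEC (0.36). Herpud1, a small membrane protein that recruits the ligase complex, had 8295, 8331, 8478 and 8135 scaled reads in DIEC DSS, against 6386, 6270.2, 6359 and 8573 in DIEC naive libraries, and 6755, 7297, 8008 and 6168 in F/F DSS, against 6102, 5230.3, 4898 and 8196 in F/F naive libraries. It was chosen for this listing after its values were seen. In both genotypes the naive library numbered 4 lay above the rest of its group, and no change was called (0.28 ± 0.13 in DIEC, adjusted p = 0.0887, and 0.23 ± 0.13 in F/F, adjusted p = 0.176). Without both of these naive libraries, a choice made after seeing the data, Herpud1 rose by 0.39 in DIEC and 0.38 in F/F and was called in both, and after TMM with all libraries it was called in DIEC (0.54).

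Edem1 and Edem2, mannosidase-like proteins that pick misfolded glycoproteins for degradation, were at −0.01 ± 0.07 and −0.01 ± 0.08 in DIEC, and at −0.20 ± 0.07 and 0.05 ± 0.08 in F/F. The fall of Edem1 in F/F (adjusted p = 0.0225) was not called after TMM, and in DIEC both genes were then higher (0.24 each) and called. Of the 8 degradation genes, 3 were lower and 1 higher with DSS in DIEC on the deposited scale (40% and 12.3% of all tested genes). In F/F, 4 were lower and none higher (28.5% and 16.3%). The DIEC counts on this scale were thus near the shares of all genes. After TMM, 1 was lower and 5 higher in DIEC (26.3% and 25.1% of all genes). In F/F, 2 were then lower and 1 higher (22.5% and 22.8%).

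Of the 5 sensor and transcription factor genes, Ern2 and Atf6 were lower with DSS in DIEC and Xbp1 in F/F. None was higher on the deposited scale. All tested genes were lower in 40% of cases in DIEC, the same share as these 2 of 5. In F/F the share was 28.5%, larger than 1 of 5. Ern2 (mm9 chr7:129313407-129329730, minus strand) encodes IRE1β, the IRE1 of mucosal epithelium, known from goblet cells. It had 1965, 1333, 1492 and 1492 scaled reads in DIEC DSS, against 2655, 2460.4, 2613 and 2395 in DIEC naive libraries, and 3334, 2138, 2460.1 and 2104 in F/F DSS, against 2438, 2927, 2708 and 2845 in F/F naive libraries. The DIEC DSS libraries lay below every other library, while F/F DSS and F/F naive libraries mixed. The DSS change was −0.70 ± 0.13 in DIEC (adjusted p = 0.000165) and −0.14 ± 0.13 in F/F (adjusted p = 0.394). Their difference, −0.56 ± 0.18, was not called (adjusted p = 0.088, 95% interval −0.96 to −0.16), so the responses are not shown to differ. It was called without F/F DSS 2 (−0.63) or without DIEC DSS 1 (−0.67). Without the 5 naive libraries richest in acinar reads, which leaves 1 DIEC naive library, the DIEC change was −0.62 and was not called.

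Xbp1, the transcription factor whose mRNA IRE1 splices, had 5793, 6481, 5983 and 7171 scaled reads in DIEC DSS, against 7290.4, 7250.2, 7184 and 7323 in DIEC naive libraries, and 6241, 6426, 8219 and 7448 in F/F DSS, against 9204, 8555, 8908 and 8615 in F/F naive libraries. DSS libraries lay below the naive libraries of their own genotype, and the change was called in F/F (−0.32 ± 0.08, adjusted p = 0.0041) but not in DIEC (−0.20 ± 0.08, adjusted p = 0.0588, and 0.06 after TMM). These values count all Xbp1 reads and do not separate spliced from unspliced mRNA.

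Atf6 had 2396, 1973, 1990.1 and 1934 scaled reads in DIEC DSS, against 2551, 2329, 2561 and 2719.6 in DIEC naive libraries, and 2475, 2196, 2049 and 1994 in F/F DSS, against 2474, 2408, 2388 and 2809.9 in F/F naive libraries. The high DIEC DSS 1 reached into the naive range; the fall in DIEC (−0.30 ± 0.09, adjusted p = 0.00681) was −0.04 and not called after TMM, and F/F gave −0.21 ± 0.09 (adjusted p = 0.0516). Ern1, the IRE1α of most cells, had 918, 684, 536 and 639 in DIEC DSS, against 825, 612, 819.6 and 835 in DIEC naive libraries, and 995, 816, 752 and 709 in F/F DSS, against 647, 699, 723 and 889 in F/F naive libraries. Its groups overlapped throughout, with changes of −0.17 ± 0.15 in DIEC and 0.14 ± 0.15 in F/F (adjusted p = 0.375 and 0.476), and 0.08 in DIEC after TMM. The PERK gene Eif2ak3 was not called either (0.13 ± 0.10 in DIEC and 0.09 ± 0.10 in F/F), but was called higher in DIEC after TMM (0.39).

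The ATF4 branch held genes that moved in opposite directions. Of its 7 genes, 2 were higher and 1 lower with DSS in each genotype, under both scalings. Of all tested genes, 12.3% were higher and 40% lower in DIEC, and 16.3% and 28.5% in F/F. After TMM these shares were 25.1% and 26.3% in DIEC, and 22.8% and 22.5% in F/F. Movement in both directions is thus not particular to this branch. Asns, asparagine synthetase, is a textbook ATF4 target of amino acid shortage and ER stress. It had 470.0, 376, 454 and 465 scaled reads in DIEC DSS, against 1124, 1142, 1066 and 1099 in DIEC naive libraries, and 507, 399, 543 and 592 in F/F DSS, against 1206, 1643, 1691 and 1560.5 in F/F naive libraries. Every DSS library held fewer reads than every naive library, and the log2 changes of −1.33 ± 0.12 in DIEC (adjusted p = 4.01e-08) and −1.58 ± 0.12 in F/F (adjusted p = 1.99e-07) had the smallest adjusted p of the 38 genes in both genotypes.

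Atf3, a stress-induced repressor, and Ppp1r15a (GADD34), the phosphatase subunit that restores translation, went the other way. Atf3 (mm9 chr1:192994176-193007212, minus strand) had 2117, 2755, 1579 and 4954 scaled reads in DIEC DSS, against 843, 983, 1188 and 1378 in DIEC naive libraries, and 1863, 2076, 1518 and 1621 in F/F DSS, against 893, 1018, 1048 and 1107 in F/F naive libraries. The DSS libraries were above the naive ones in both genotypes, and DIEC DSS 4 was highest of all. The rise was 1.27 ± 0.27 in DIEC (adjusted p = 0.00144) and 0.79 ± 0.27 in F/F (adjusted p = 0.0304). Ppp1r15a had 752, 969.7, 751 and 945 in DIEC DSS, against 422, 434, 383 and 644 in DIEC naive libraries, and 566, 758, 671 and 722 in F/F DSS, against 439, 443, 451 and 667 in F/F naive libraries. Only in F/F did the groups overlap, through F/F naive 4, and the rise was 0.88 ± 0.16 in DIEC (adjusted p = 0.000182) and 0.46 ± 0.16 in F/F (adjusted p = 0.0296). The F/F calls were near the threshold: that of Atf3 was lost without F/F naive 1, 2 or 3 or F/F DSS 1 or 2 (0.71 to 0.81), and that of Ppp1r15a without F/F naive 1, 2 or 3 or F/F DSS 2, 3 or 4 (0.40 to 0.46).

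Atf4 itself had 4814, 5074, 4769 and 6025 scaled reads in DIEC DSS, against 5303, 5566, 5933 and 6056 in DIEC naive libraries, and 5469, 5037, 6977 and 6044 in F/F DSS, against 5818, 5479.9, 6344 and 5966 in F/F naive libraries. Its groups overlapped, and the 95% intervals were −0.36 to 0.06 in DIEC and −0.22 to 0.19 in F/F. The estimates were −0.15 in DIEC and −0.01 in F/F, and 0.11 and 0.09 after TMM, called under neither scaling. ATF4 is regulated mainly at translation, which RNA-seq does not measure. Ddit3 (CHOP), a transcription factor linked to cell death, had 530.5, 610.0, 578 and 654 in DIEC DSS, against 486, 476, 439 and 723 in DIEC naive libraries, and 592, 742, 881 and 678 in F/F DSS, against 631, 508, 456 and 1303 in F/F naive libraries. One naive library in each genotype, numbered 4, stood above the other 3 of its group, and neither change was called (0.18 ± 0.27 in DIEC, adjusted p = 0.606, and 0.12 ± 0.27 in F/F, adjusted p = 0.762). The gene span of Ddit3 overlaps that of Mars, on the opposite strand, by 68 bases, so reads of the pair may mix.

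The same naive libraries were high for Chac1, a glutathione-degrading enzyme, and Trib3, a pseudokinase, both known CHOP or ATF4 targets and both listed after their values were seen. Chac1 had 28.1, 32.4, 37.1 and 41.1 scaled reads in DIEC DSS, against 101, 31.9, 26.61 and 244 in DIEC naive libraries, and 35.2, 31.3, 39.9 and 51.4 in F/F DSS, against 50.5, 45.3, 56.6 and 416 in F/F naive libraries. Trib3 had 20.8, 42, 31.3 and 22.4 in DIEC DSS, against 36.7, 23.7, 29.3 and 95.1 in DIEC naive libraries, and 30.2, 36.7, 38.1 and 26.63 in F/F DSS, against 40.4, 23.1, 40.1 and 276 in F/F naive libraries. Naive libraries 4 were thus the highest of their group for both genes, and neither gene was called for DSS. DIEC naive 4 was the highest of its group for 29 of the 38 genes and F/F naive 4 for 27, as were DIEC DSS 4 for 22 and F/F DSS 3 for 27. The naive libraries 4 were also the lowest of their group for goblet cell markers (2.19% of reads in DIEC and 2.21% in F/F, against 2.94% to 3.46% and 4.11% to 5.28% in the others of each group). Without both naive libraries 4, Ddit3 was called higher with DSS in DIEC (0.34) and F/F (0.44), and the higher calls numbered 7 in DIEC (12% of all genes) and 5 in F/F (15.6%).

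**Figure D4:**
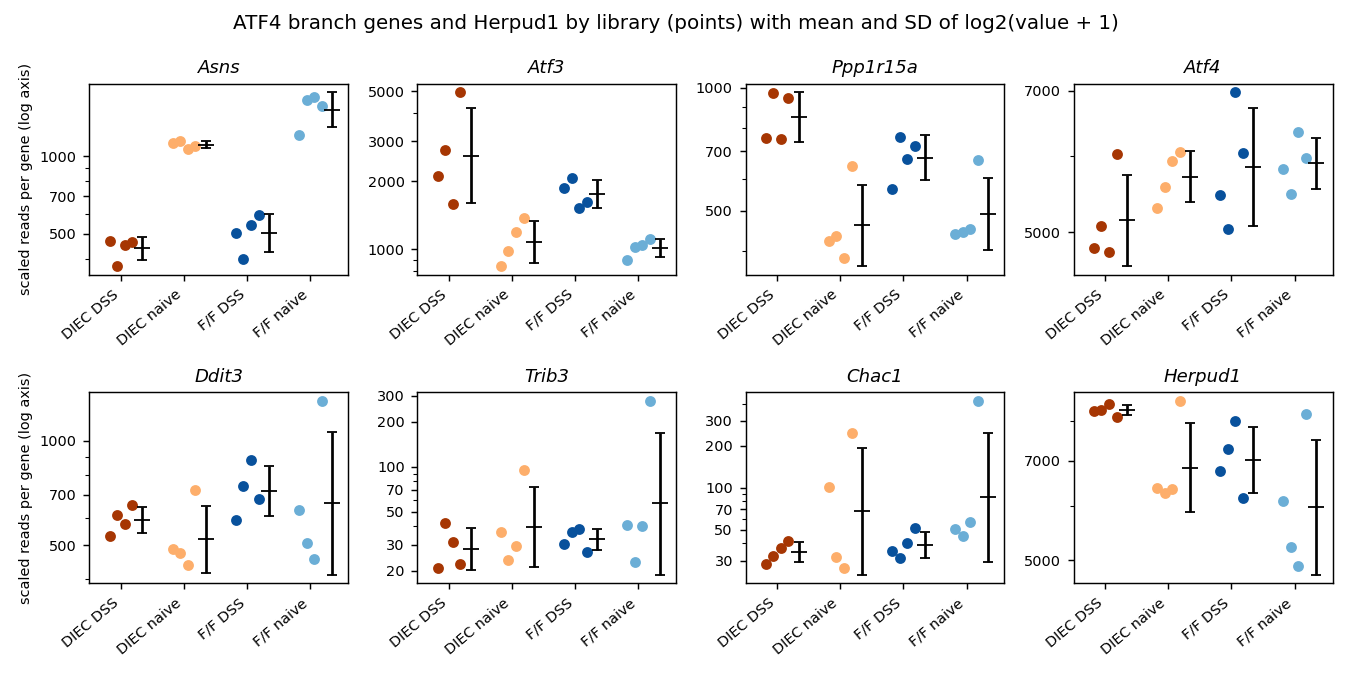
Scaled reads per gene (log axes) of Asns, Atf3, Ppp1r15a, Atf4, Ddit3, Trib3, Chac1 and Herpud1 in each library (points), with the mean and SD of log2(scaled reads + 1) over 4 libraries per group. Asns is lower and Atf3 higher in all DSS libraries than in the naive libraries of the same genotype, and a single F/F naive library stands above the rest for Trib3 (276) and Chac1 (416).

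Genes of this branch carry another element, the composite site of C/EBP and ATF factors (CARE, searched as TGATGNAA on both strands), which was in 5 of the 32 genes with a window (15.6%) and in 1304 of all 32851 windows (3.97%). All but Herpud1 belong to the ATF4 branch, in which 4 of 7 genes held it. The windows of Asns and Chac1 are shown because both hold the element, while Asns fell in both genotypes and Chac1 was called in neither; capitals mark the match.
Asns (chr6:7693160-7693459, minus strand): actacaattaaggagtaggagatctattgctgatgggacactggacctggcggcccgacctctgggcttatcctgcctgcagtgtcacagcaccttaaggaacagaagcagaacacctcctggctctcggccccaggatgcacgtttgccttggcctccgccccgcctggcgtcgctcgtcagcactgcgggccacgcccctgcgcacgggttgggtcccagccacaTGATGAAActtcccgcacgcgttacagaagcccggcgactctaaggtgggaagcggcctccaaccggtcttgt
Chac1 (chr2:119350992-119351291, plus strand): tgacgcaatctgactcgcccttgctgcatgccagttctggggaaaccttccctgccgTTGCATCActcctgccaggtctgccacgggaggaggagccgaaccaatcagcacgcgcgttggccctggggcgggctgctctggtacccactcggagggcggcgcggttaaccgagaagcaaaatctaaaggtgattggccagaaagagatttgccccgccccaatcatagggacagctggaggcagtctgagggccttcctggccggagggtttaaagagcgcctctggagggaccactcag
The match began at −23 in Asns and, on the opposite strand, at −193 in Chac1. The matches of Atf3 and Herpud1 have the same letters as that of Chac1, and that of Trib3 differs in the free base.
Atf3: TTgCATCA
Herpud1: TTgCATCA
Trib3: TTaCATCA
Of these 5 genes, Atf3 rose and Asns fell with DSS in both genotypes, and the other 3 were called in neither on the deposited scale.

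Of the translocon genes, Sec61b, a small subunit of the channel, had 1031, 1129.8, 1087 and 1335 scaled reads in DIEC DSS, against 1357, 1625, 1224 and 1522 in DIEC naive libraries, and 932, 909, 1192 and 1129 in F/F DSS, against 1498, 1549, 1613 and 1559 in F/F naive libraries. It fell in F/F with no overlap (−0.59 ± 0.10, adjusted p = 0.00015) and in DIEC with overlap (−0.32 ± 0.10, adjusted p = 0.0137, not called after TMM). Ssr1, a subunit of the translocon-associated TRAP complex, had 4177, 4150.0, 4535 and 4608 in DIEC DSS, against 4868, 4734, 6013 and 5619.5 in DIEC naive libraries, and 3863, 3403, 4685 and 4243 in F/F DSS, against 5263, 5233, 5897 and 5347 in F/F naive libraries. It too was lower in all DSS libraries than in the naive libraries of its genotype (−0.28 ± 0.09 in DIEC, adjusted p = 0.0188, not called after TMM, and −0.43 ± 0.09 in F/F, adjusted p = 0.000984). The pore subunit Sec61a1 had 7456, 7527, 6815 and 7602 in DIEC DSS, against 6501, 6040.0, 7133 and 7926 in DIEC naive libraries, and 7162, 6170.3, 8169.8 and 7441 in F/F DSS, against 7151, 7638, 8675 and 7827 in F/F naive libraries. Its groups overlapped, it was not called in either genotype, and after TMM it was called higher in DIEC (0.35).

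The 2 DSS responses share no library, but both came from the same fit, with a shared variance. In both, 12 genes were called lower: Hsp90b1, Pdia4, Pdia6, P4hb, Canx, Dnajc3, the 3 Derlins, Asns, Sec61b and Ssr1. These were 85.7% of the 14 lower in DIEC and 60% of the 20 lower in F/F. Of all tested genes, 40% were lower in DIEC and 28.5% in F/F. The share of all tested genes called in both was not counted, so the overlap is not shown to be particular to these genes. Atf3 and Ppp1r15a were higher in both. After TMM, 6 were lower in both (Hsp90b1, Pdia4, Pdia6, Dnajc3, Derl3 and Asns) and Syvn1 joined the genes higher in both. Without the 5 naive libraries with over 0.1% of reads on acinar markers, also chosen after seeing the data, 4 DIEC DSS libraries stand against DIEC naive 4 alone, which is assumed to vary like the other groups. In that fit 11 genes were lower and none higher in DIEC (23.2% and 4.03% of all genes), and 15 were lower and 3 higher in F/F (21.5% and 12.8%), where 4 libraries stand against 2. Lower under each of the 31 alternatives run were Hsp90b1, Pdia4, Pdia6 and Asns in DIEC, and these 4 with Hspa5, Dnajc3, Sdf2l1, Manf, Derl3 and Sec61b in F/F.

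**Figure D5:**
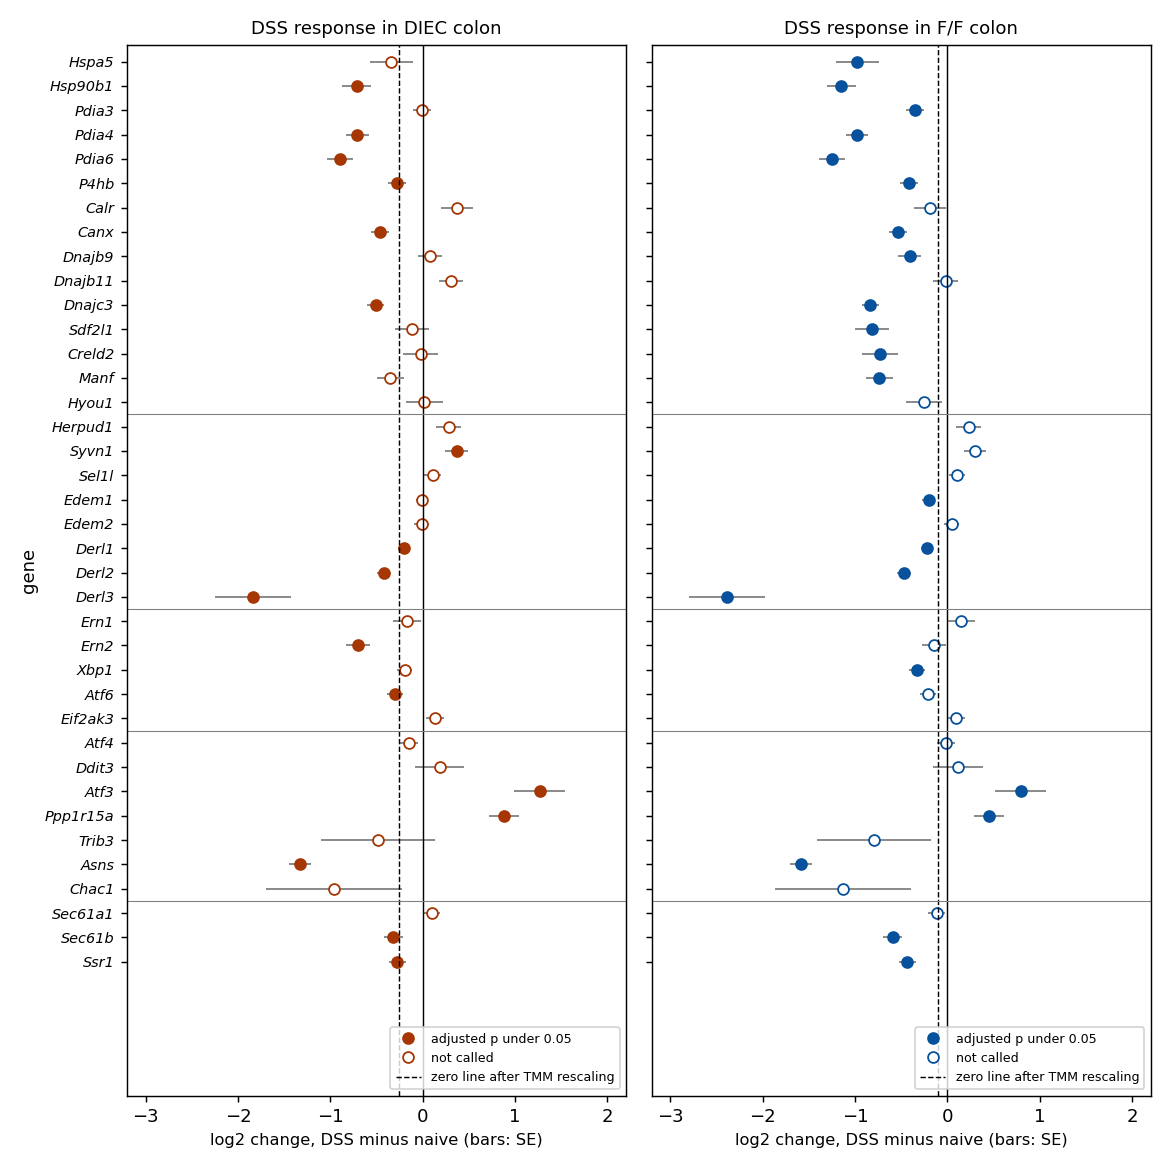
DSS against naive log2 change of scaled reads + 1 with its standard error for each of the 38 genes, in DIEC (left panel) and F/F colon (right panel), with filled points for called genes and a dashed line at the zero after TMM rescaling. Most folding genes lie left of 0 in F/F, whereas in DIEC several of them lie near 0 or near the dashed line, and Atf3 (1.27 and 0.79) lies farthest to the right in both panels.

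No difference between the 2 DSS responses was called for any of the 38 genes in the main limma fit (background 0.29% higher and 3.34% lower), by edgeR or by voom. DESeq2 called 6 (1.57% of all genes): Pdia3, Dnajb9, Dnajc3, Sdf2l1, Creld2 and Edem1, all with the higher value in DIEC. Limma with the replicate block also called 6 higher, where the share of all genes was not counted, and without DIEC naive 4 it called Dnajb9 (0.62). At an unadjusted p under 0.05 limma had 6 genes above and 1, Ern2, below 0 (2.21% and 20.4% of all genes). The estimate of the difference, DIEC response minus F/F response, was above 0 for 33 of the 38 genes and for all 15 chaperones and folding enzymes, against 28.7% of all tested genes. Its median was 0.23 over the 38 genes and −0.16 over all tested genes. After TMM the estimate was above 0 for 36 of the 38 genes and for all 15 chaperones and folding enzymes. The medians were then 0.38 over the 38 genes and −0.02 over all tested genes. The share of all genes above 0 was not counted on that scale, so the 28.7% holds for the deposited scale only. The chaperones and folding enzymes had a median of 0.35 (0.50 after TMM), the 11 goblet cell markers of 0.31 (0.47) and the 12 plasma cell markers of 0.04 (0.19), with none of the goblet and 1 of the plasma cell markers called. The part of these cells in the difference was not tested. The wider list of 195 other ER genes, described below, had a median of −0.06 (0.09 after TMM). Its 41 folding enzymes and cochaperones had a median of −0.05 (0.10). Both medians were below those of the 15 chaperones and folding enzymes, so the shift of the 15 does not extend to ER folding genes in general.

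Between the genotypes in naive colon, no gene of the 38 was called in the main limma fit (background 1.41% higher and 0.821% lower). The limma fits with a replicate block or with the 2 groups alone called some lower, as given with the alternatives below. At an unadjusted p under 0.05, 10 were lower and none higher (7.83% and 6.01% of all genes). edgeR called Asns (0.956% of all genes lower), DESeq2 called Asns and Derl3 (1.7%), and voom called Derl3 (0.956%), all lower in DIEC. Without the 5 naive libraries with over 0.1% of reads on acinar markers, the comparison sets DIEC naive 4 alone, assumed to vary like the other groups, against F/F naive 1 and 2. Chac1 was then at 2.33 and called (0.0876% of all genes called higher), a value that rests on the 244 scaled reads of DIEC naive 4, the highest of its group, and on leaving out F/F naive 4 (416). The naive values given above stood apart between the genotypes for 4 genes, Pdia4, Derl3, Xbp1 and Asns, all lower in DIEC (6.37% of all genes were lower with no overlap). Their log2 differences, DIEC against F/F, were −0.42 ± 0.12 for Pdia4, −1.16 ± 0.41 for Derl3, −0.28 ± 0.08 for Xbp1 and −0.45 ± 0.12 for Asns, whose adjusted p of 0.0532 was the smallest. All 15 chaperones and folding enzymes had an estimate below 0 (median −0.31), as had 32 of the 38 genes and 59% of all tested genes; the naive libraries behind these estimates also enter the difference between responses. DIEC naive 1, which held the most acinar reads, was the lowest of its group for 11 of the 15, and plasma cell markers were also lower in DIEC naive than in F/F naive libraries (2 of 12 called lower, none higher).

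Between the genotypes under DSS, 2 genes were higher in DIEC DSS than in F/F DSS colon (background 3.28%) and 2 were lower (26%). Ern2 was lower (log2 difference −0.67 ± 0.13, adjusted p = 0.00118), with no overlap, and was called under each of the 29 alternatives run (−0.48 after TMM). In all, 2 genes were lower with no overlap, Ern2 and Edem2 (21.9% of all genes), and 4 were higher with no overlap (3.1%). Markers of goblet cells, where Ern2 is known to be expressed, took 2.67% to 3.37% of reads in DIEC DSS and 2.03% to 2.56% in F/F DSS libraries. Of these 11 markers, 4 were called higher and none lower. Markers of absorptive colonocytes took 4.21% to 5.47% in DIEC DSS and 2.93% to 3.79% in F/F DSS libraries. The part of these cells in the level of Ern2 was not tested. Edem2 was also lower, at 1172 to 1343 scaled reads in DIEC DSS, against 1429 to 1642 in F/F DSS libraries (−0.25 ± 0.08, adjusted p = 0.0238), and was not called after TMM (−0.06).

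The higher genes were Pdia3 and Edem1. Pdia3 had 20568, 22356, 23128 and 24064 scaled reads in DIEC DSS, against 15968, 18585, 19658 and 18748 in F/F DSS libraries, with no overlap (0.31 ± 0.10, adjusted p = 0.0275). Edem1 ranged from 4688 to 5418 in DIEC DSS, against 3921 to 4621 in F/F DSS libraries (0.23 ± 0.07, adjusted p = 0.0155). These calls rest on few libraries: that of Pdia3 was lost without F/F DSS 1, DIEC DSS 3 or DIEC DSS 4 (0.24 to 0.29), that of Edem1 without F/F DSS 4 or DIEC DSS 2 (0.20 and 0.19), and that of Edem2 without F/F DSS 1, F/F DSS 3 or DIEC DSS 3 (−0.23 to −0.20). Besides these, Calr and Herpud1 stood apart, at 21742 to 25329 and 8135 to 8478 in DIEC DSS, against 16006 to 21633 and 6168 to 8008 in F/F DSS libraries, and were not called (0.36 ± 0.17 and 0.24 ± 0.13). After TMM, 7 genes were higher (Pdia3, Calr, Dnajc3, Herpud1, Edem1, Sec61b and Ssr1; 6.68% of all genes) and Ern2 alone was lower (7.38%).

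Of 195 other genes of ER folding, degradation, stress signalling and translocation, 108 were lower and 22 higher with DSS in DIEC (40% and 12.3% of all tested genes), and 105 were lower and 32 higher in F/F (28.5% and 16.3%). After TMM, 73 were lower and 46 higher in DIEC (26.3% and 25.1%), and 87 were lower and 40 higher in F/F (22.5% and 22.8%). Of the 41 folding enzymes and cochaperones among them, 26 were lower in DIEC and 27 in F/F, and after TMM 19 and 22. Dnajc10, the ER reductase ERdj5, averaged 2582 ± 221 scaled reads in DIEC DSS and 6187 ± 528 in DIEC naive colon (SD, n = 4 each), and 2622 ± 312 in F/F DSS and 6053 ± 297 in F/F naive colon. Its changes of −1.26 ± 0.09 and −1.21 ± 0.09 were close in the 2 genotypes. Bet1, a SNARE of ER-to-Golgi transport, was −1.06 ± 0.09 in DIEC and −1.15 ± 0.09 in F/F. Tmbim6, the ER membrane protein BAX inhibitor 1, rose to 33460 ± 3305 in DIEC DSS, against 21990 ± 2298 in DIEC naive colon, and to 30470 ± 1958 in F/F DSS, against 20710 ± 1358 in F/F naive colon.

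Between the genotypes, these 195 genes had 4 genes higher and 2 lower in naive colon (1.41% and 0.821% of all tested genes). Under DSS 7 were higher and 46 lower, near the shares of all tested genes (3.28% and 26%), and after TMM 23 were higher and 10 lower (6.68% and 7.38%). Of the 6 genes called in naive colon, 4 stand in the list of ATF4 and CHOP targets. Vldlr, a lipoprotein receptor, was at 1506 ± 83.4 in DIEC naive and 1001 ± 73.7 in F/F naive colon (0.59 ± 0.08, adjusted p = 0.000532), Vegfa at 0.51 ± 0.11 and Dusp16 at 0.40 ± 0.09, while the glycine transporter Slc6a9 (−0.44 ± 0.11, not called after TMM) and the prolyl isomerase Fkbp11 (−0.67 ± 0.17), which is also in the plasma cell list, were lower. Under DSS, Vldlr was 1079 ± 58.9 in DIEC and 542 ± 61.4 in F/F colon (1.00 ± 0.08), and Ddit4, a stress-induced inhibitor of mTORC1, was 3755 ± 403 and 2369 ± 159 (0.66 ± 0.12). The cargo receptor Lman1 was lower, at 1046 ± 95.8 in DIEC DSS and 1561 ± 242 in F/F DSS colon (−0.57 ± 0.10). One of these genes differed between the DSS responses: Ero1l, the oxidase that recharges protein disulfide isomerases, at 1433 ± 29.5 in DIEC DSS and 1378 ± 73.6 in DIEC naive colon, and 1214 ± 49.95 in F/F DSS and 1456 ± 57.8 in F/F naive colon (difference 0.32 ± 0.09, adjusted p = 0.04996).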

How the data were processed

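RNA was sequenced from 16 colon libraries, each pooled from 3 mice. Per the submitters' processing notes the tools were bcl2fastq, STAR 2.2.0c and HOMER 4.9, with build mm10, whereas per the file headers reads were counted over exons of mm9 RefSeq genes with HOMER and its strand option. Per the labels' protocols the library kit was TruSeq RNA, which in its standard form does not mark strand, so overlapping genes are uncertain. The authors deposited a normalized signal, the reads per gene divided by 1 factor per library so that each library sums to 26554078 to 26554094. Whole reads were recovered for 100% of the values (tolerance 0.01 reads). The deposited table also holds the authors' log2 fold changes and p-values, whose test the sources used here do not name; these were not used for any result.

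limma 3.58.1 in R 4.3.3 (empirical Bayes with trend and robust settings) was fitted to log2(value + 1) of 18267 genes, those reaching 1 in 4 or more libraries, with 4 group means and Benjamini-Hochberg adjustment over all genes. Alternatives were pseudocounts of 0.25 and 8, other filters, TMM, and edgeR 4.0.16, DESeq2 1.42.0 and voom on the reads of 15695 genes, the 2 groups alone, a replicate block, each library left out, and stricter thresholds. The analysis was tested on simulated data. Members named library by library were the 3 with the smallest moderated F-test p of each role, with Hspa5, Xbp1, Atf4, Ddit3, Ern1 and Ern2; from the wider list, the 3 called genes of smallest adjusted p in each direction could be named. The members and lists were chosen with earlier results of these data known. Labels do not say whether pools were made on separate days, so p-values measure the spread between pools. Promoter windows are RefSeq sequences of GRCm38.p6.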

Additional observations from a re-analysis of the deposited data

Results flagged for a closer look

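In 13 of the 152 combinations of a gene and a group, 1 library lay far from the other 3 of its group by Dixon's test at the 95% level, which flags about 1 in 20 groups by chance. DIEC naive 4 was high for Dnajb9 (1734, the others 1163 to 1211), Herpud1 (8573, the others 6270.2 to 6386) and Syvn1 (2625, the others 2078 to 2154). F/F naive 4 was high for Derl1 (3414.5, the others 2978 to 3039), Ppp1r15a (667, the others 439 to 451) and Chac1 (416, the others 45.3 to 56.6). DIEC naive 2 was low for Sel1l (2701, the others 3551 to 3718) and Ern1 (612, the others 820 to 835), and F/F naive 3 was high for Eif2ak3 (1564, the others 1401 to 1426).

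In the DIEC DSS group, library 4 was high for Pdia4 (3692, the others 3059 to 3153), library 3 was low for Edem2 (1172, the others 1315 to 1343), library 1 was high for Atf6 (2396, the others 1934 to 1990.1) and library 2 was low for Asns (376, the others 454 to 470.02). No F/F DSS library was marked. The 2 naive libraries numbered 4 account for 6 of the 13, and their values are given beside the genes they touch.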

How the results depend on the processing

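Called values kept their direction under the alternatives run, with the exceptions given here. With DSS in DIEC, Edem1 turned to 0.24 with TMM, 0.25 with edgeR, 0.25 with DESeq2 and 0.24 with voom, and Edem2 to 0.24, 0.24, 0.25 and 0.24. Derl1, called lower on the deposited scale, was 0.0553 with TMM, 0.0545 with edgeR, 0.0618 with DESeq2 and 0.0538 with voom, and Pdia3 was 0.25 with DESeq2. Without the naive libraries over 0.1% acinar reads Chac1 turned to 2.33 between the genotypes in naive colon and was called, the 1 gene higher there, from DIEC naive 4 alone, which is assumed to vary like the other groups. Percentages beside counts are the shares of all genes called in the same direction by the same fit. They were not counted for a fold of at least 1.5 or an adjusted p of 0.01. Nor were they counted for the 2 groups alone, a replicate block or a library left out. Lower calls for DSS in DIEC (14, all genes 40%) became 7 with TMM (26.3%), edgeR (29.8%) or DESeq2 (29.1%), 8 with voom (29.8%), 6 with a fold of at least 1.5, and 11 to 16 with a library left out. Higher calls for DSS in DIEC (3, all genes 12.3%) became 12 with TMM (25.1%), 11 with edgeR (29.5%), 13 with DESeq2 (29.8%), 12 with voom (29%), 7 without both naive pools numbered 4 (12%), and 2 to 6 with a library left out (5 without DIEC naive 3, 6 without DIEC naive 4). With TMM, edgeR, DESeq2 and voom the share of all genes called higher thus rose as well. In F/F, the 20 lower calls (all genes 28.5%) became 11 with a fold of at least 1.5. The 2 higher calls (all genes 16.3%) became 5 without both naive pools numbered 4 (15.6%), 1 with a fold of at least 1.5, 0 at an adjusted p of 0.01 and 0 to 5 with a library left out (0 without F/F naive 1 or 2 or F/F DSS 2, 1 without F/F naive 3 or F/F DSS 3, 5 without F/F naive 4). Between the genotypes under DSS, the 2 higher calls (all genes 3.28%) became 7 with TMM (6.68%), 10 with edgeR (8.45%), 11 with DESeq2 (10.1%), 9 with voom (8.2%), 0 at an adjusted p of 0.01, 0 with a fold of at least 1.5 and 1 to 2 with a library left out. The 2 lower calls there (all genes 26%) became 1 with TMM (7.38%), edgeR (8.78%), DESeq2 (9.52%), voom (7.81%), an adjusted p of 0.01 or a fold of at least 1.5, and 1 to 3 with a library left out. In naive colon, the 0 lower calls (all genes 0.821%) became 1 with edgeR (0.956%), 2 with DESeq2 (1.7%), 1 with voom (0.956%), 3 with the 2 groups alone and 0 to 1 with a library left out. For the difference between responses, DESeq2 gave 6 higher calls (1.57%), and leaving out a library gave 0 to 1 higher and 0 to 1 lower. The causes were not tested. The fit of 2 groups alone could not be made for the difference between responses, and the sets of naive libraries do not enter the comparison under DSS. Correlations between libraries of the same number were −0.148 to 0.232. The highest, 0.232 and 0.212, were between the DIEC DSS and F/F DSS libraries numbered 1 and 2, each the best match. Those numbered 3 and 4 were at −0.148 and 0.0356, so the numbers did not pair the libraries throughout. With the replicate block, 5 genes were higher with DSS in DIEC and 4 were higher between the genotypes under DSS. In that fit 5 were lower in naive colon, and 6 were higher for the difference between responses. The shares of all genes called by the block fit were not counted, so these counts cannot be set against a background. With 4 pools a group, a change that was not called is not shown to be absent, and its interval gives the sizes these data allow.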
